A study of Populus cathayana with 4 samples.

Results

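The transcripts of 4 cell wall genes were counted in leaves of Populus cathayana, a dioecious poplar, that is, one whose trees are either male or female. They are 2 entries described as cellulose synthase (Potri.002G257900.1 and Potri.002G066600.1), XTH-6 (Potri.006G071200.1), described as a xyloglucan endotransglycosylase/hydrolase precursor, and an abundant entry described as pectinesterase-2 precursor (Potri.014G149700.1, called pectinesterase here). These 4 were selected on their raw counts in the 4 libraries, out of the 19100 entries of the deposited count table, called genes here. Every value of them is therefore a description, and no test was made on them.

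The wall of a growing plant cell is a network of cellulose fibres held in a gel of pectin and hemicelluloses such as xyloglucan. Cellulose synthases are plasma membrane enzymes that spin cellulose chains from UDP-glucose, and different members of the family serve the primary wall of growing cells and the thick secondary wall of xylem. Xyloglucan endotransglycosylase/hydrolases cut xyloglucan chains and rejoin them, which remodels the links between fibres. Pectinesterases remove methyl groups from pectin, which changes how firmly the pectin gel sets.

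Cuttings of each sex grew in pots in a greenhouse, 1 plant per pot, and the fourth fully expanded leaves were taken after 100 days of treatment. Males and females were each kept under reduced or under ambient solar UV-B, which gave 4 groups. Each group had 1 library from the pooled RNA of 9 plants, so the spread between plants was not measured, and each library ran on its own flow cell lane, so lane and group cannot be told apart. Transcripts were counted by 3′ tag sequencing, in which a 17 bp tag beside a restriction site stands for 1 transcript, so counts of different genes are compared without a length correction.

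The listed entries held 624926 to 722533 tags per library, which is 14.4% to 17.2% of the library totals. The male library under ambient UV-B had the largest listed share, and 7001 of its entries were at 0 where the others had 5431 to 5948. No entry has a count of 1, so a listed 0 can stand for 0 or 1 tag. CPM below is the tag count scaled to a library total of 1000000 tags. All intervals are exact 95% intervals that cover counting error only, with each tag taken as an independent molecule. With TMM factors, which rescale the libraries on the bulk of their genes, every male UV-B log2 ratio moved by -0.21 and every female one by -0.01. Leaf markers were abundant in each library: the 24 entries described as light-harvesting, Rubisco or plastocyanin proteins summed to 6965 to 8643 CPM, with 4 or 5 of them at 0.

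The first cellulose synthase, Potri.002G257900.1, was far lower in 1 library, females under ambient UV-B, than in the other 3. Males had 97 counts with reduced and 88 with ambient UV-B, and females had 63 and 5. In the same order the levels were 22.7 CPM (interval 18.4 to 27.6), 20.9 CPM (16.8 to 25.8), 14.3 CPM (11.0 to 18.3) and 1.16 CPM (0.375 to 2.70). In this order the intervals of neighbouring libraries overlapped except at the last step, down to the female ambient library. By count the gene had ranks 1029, 1333 and 1580 in the first 3 libraries and 7466 in the last, of 12099 to 13669 entries above 0.

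Between UV-B levels, the log2 ratio of ambient to reduced for Potri.002G257900.1 was -3.63 in females (interval -5.30 to -2.33), a level 12.4-fold lower. In males it was -0.11 (interval -0.55 to 0.32), or -0.33 with TMM factors, so a difference between the male libraries was not detectable at this depth. The log2 ratio of females to males was -0.66 under reduced UV-B (interval -1.14 to -0.19) and -4.18 under ambient UV-B (-5.84 to -2.90).

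The second cellulose synthase, Potri.002G066600.1, was highest in a different library from the first. Males had 42 counts with reduced and 24 with ambient UV-B, and females had 93 and 25. Its levels were 9.81 CPM (interval 7.07 to 13.3), 5.70 CPM (3.65 to 8.49), 21.2 CPM (17.1 to 25.9) and 5.78 CPM (3.74 to 8.53). Females under reduced UV-B stood above the other libraries, whose intervals overlapped with each other.

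For Potri.002G066600.1 the UV-B log2 ratio was -1.87 in females (interval -2.57 to -1.22) and -0.78 in males (-1.57 to -0.02). With TMM factors the male value was -0.99. Females exceeded males under reduced UV-B by a log2 ratio of 1.11 (interval 0.57 to 1.67), while under ambient UV-B the log2 ratio was 0.02 (-0.85 to 0.89). The sexes thus differed by more than counting error under reduced UV-B, and under ambient UV-B a difference was not detectable at this depth.

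**Figure D1:**
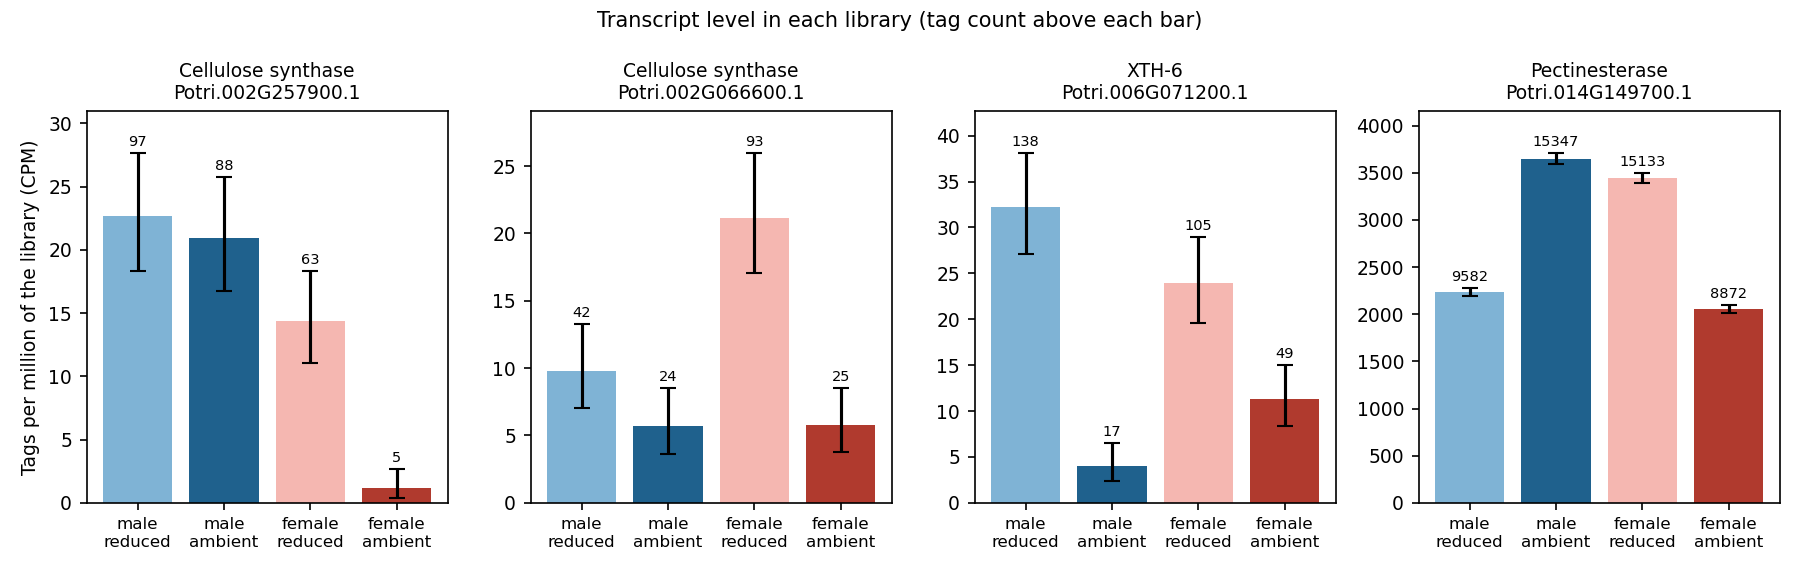
Levels of the 4 genes in each library, in CPM, with bars for single libraries, exact 95% Poisson intervals and the tag count above each bar; the vertical scale differs between panels. Potri.002G257900.1 was at 1.16 CPM in females under ambient UV-B against 14.3 CPM or more elsewhere, and XTH-6 was lowest, at 4.04 CPM, in males under ambient UV-B.

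The balance between the cellulose synthases does not depend on how libraries are scaled, because it is taken within a library. Potri.002G257900.1 had 2.31 counts for each count of Potri.002G066600.1 in males with reduced UV-B (interval 1.59 to 3.40) and 3.67 with ambient UV-B (2.31 to 6.02). In females the ratios were 0.677 (0.484 to 0.943) and 0.20 (0.0598 to 0.532). The first gene was the more abundant in both male libraries and the less abundant in both female ones.

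XTH-6 (Potri.006G071200.1) was lower under ambient UV-B in both sexes, and more so in males. Males had 138 counts with reduced and 17 with ambient UV-B, and females had 105 and 49. In CPM these are 32.2 (interval 27.1 to 38.1), 4.04 (2.35 to 6.47), 23.9 (19.6 to 28.9) and 11.3 (8.38 to 15.0). The libraries under reduced UV-B overlapped in their intervals, and both lay above the female ambient library, which lay above the male ambient one.

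The UV-B log2 ratio of XTH-6 was -2.996 in males (interval -3.82 to -2.26), a level 7.98-fold lower, and -1.08 in females (-1.60 to -0.57), a level 2.11-fold lower. Between the sexes the log2 ratio of females to males was -0.43 under reduced UV-B (interval -0.81 to -0.05) and 1.49 under ambient UV-B (0.67 to 2.38). The sex with the higher level was male under reduced UV-B and female under ambient UV-B.

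Pectinesterase (Potri.014G149700.1) was among the most abundant transcripts of every library. Males had 9582 counts with reduced and 15347 with ambient UV-B, and females had 15133 and 8872. By count it had rank 2 in the first 3 of these libraries and rank 5 in the last. It held 1.505%, 2.12%, 2.29% and 1.42% of the listed tags in the same order. Ambient UV-B thus went with the higher level in males and the lower one in females.

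In CPM, pectinesterase stood at 2238 (interval 2193 to 2283), 3648 (3590.3 to 3706), 3445 (3390.3 to 3500.35) and 2051 (2009 to 2095). No intervals overlapped, but at such counts an interval is narrow and says nothing of the spread between plants. The order of the upper pair depended on scaling, since TMM factors gave 3292 CPM in males with ambient and 3558 CPM in females with reduced UV-B.

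The UV-B log2 ratio of pectinesterase was 0.71 in males (interval 0.67 to 0.74) and -0.75 in females (-0.79 to -0.71), so the sexes had opposite directions. With TMM factors these were 0.49 and -0.76. The female to male log2 ratio was 0.62 under reduced UV-B (interval 0.59 to 0.66) and -0.83 under ambient UV-B (-0.87 to -0.79). None of these ratios reached 2-fold. The count ratio of pectinesterase to XTH-6 within a library ran from 69.4 (interval 58.7 to 82.7) to 903 (564 to 1550.1), both in males, with reduced and ambient UV-B.

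**Figure D2:**
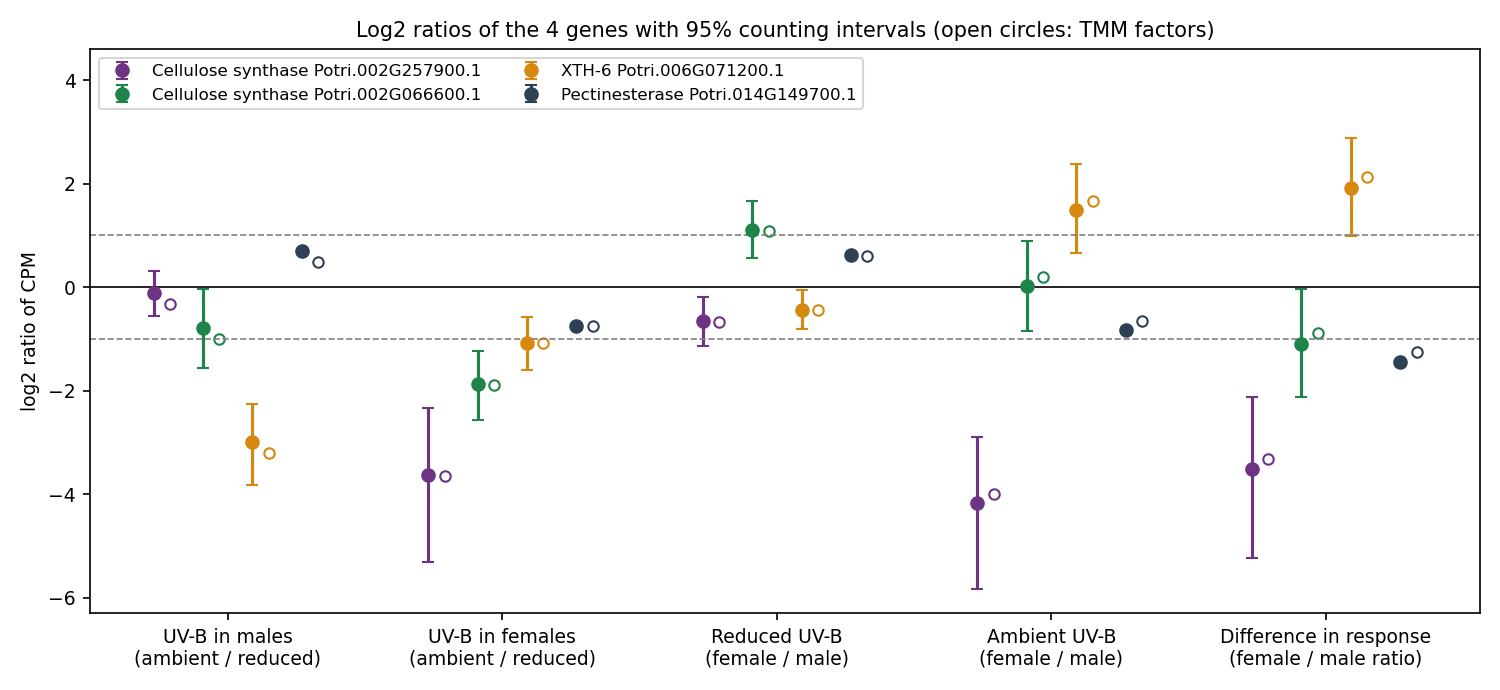
Log2 ratios of CPM of the 4 genes in the 5 comparisons (filled circles, exact 95% counting intervals) and the same with TMM factors (open circles); dashed lines mark 2-fold. Values below 0 mean lower under ambient UV-B, lower in females, or a lower ratio in females: the first cellulose synthase lay at -3.63 for UV-B in females and -0.11 in males, XTH-6 at -1.08 and -2.996.

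A gene was counted as past the fold where its CPM differed at least 2-fold. Among the 3478 genes with at least 100 counts over the 4 libraries, 10.1% were 2-fold higher and 4.72% 2-fold lower for UV-B in males. With TMM factors these shares were 5.2% and 6.5%. One of the 4 genes, XTH-6, was past the fold there, on the lower side. For UV-B in females 6.64% of genes were higher and 6.64% lower, and 3 of the 4 genes were lower. Since the genes were picked with these counts known, nothing is read from their number against these shares.

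For females against males under reduced UV-B, 13.6% of genes with at least 100 counts were higher and 15.7% lower, and 1 of the 4 genes, Potri.002G066600.1, was higher. Under ambient UV-B 9.06% were higher and 20.5% lower, or 12.1% and 16.2% with TMM factors. XTH-6 was higher there and Potri.002G257900.1 lower. In the female library under ambient UV-B the 2 cellulose synthases and pectinesterase were at or near their lowest levels, and XTH-6 was at neither end of its range.

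**Figure D3:**
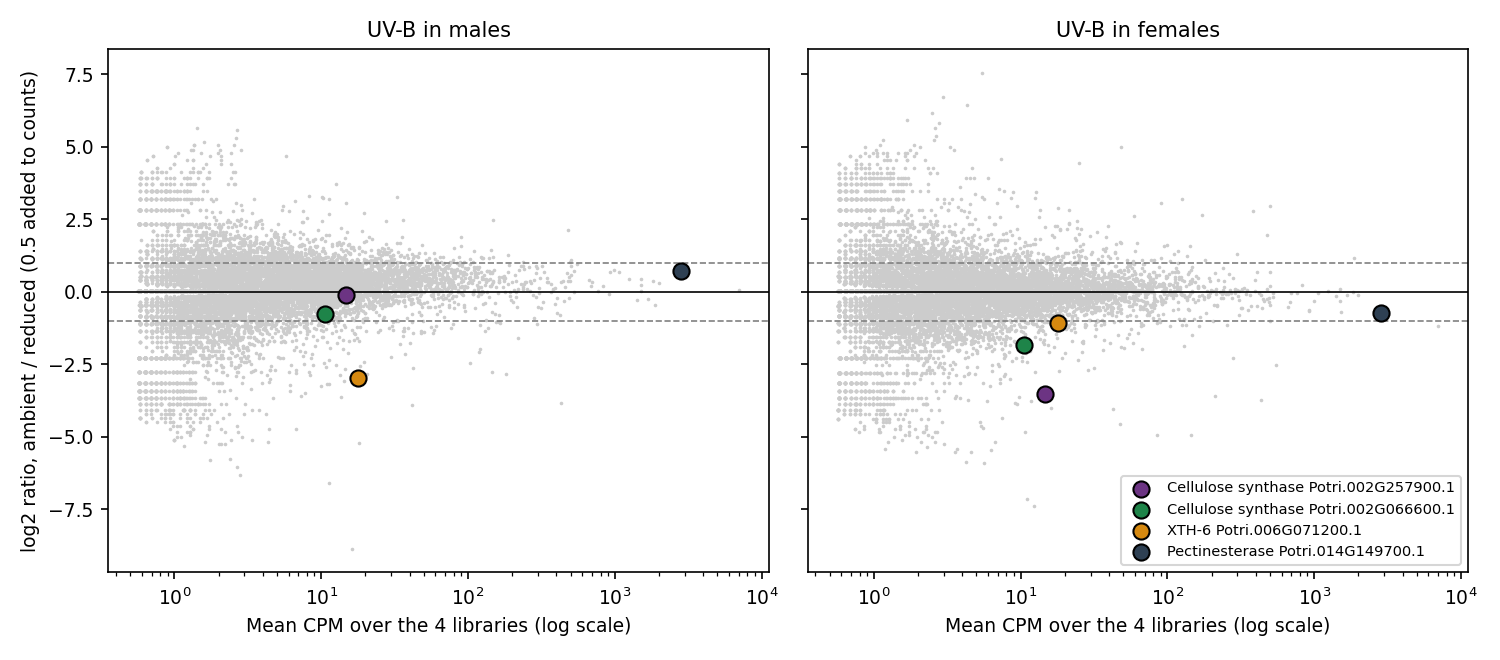
UV-B log2 ratio (ambient over reduced, 0.5 added to each count) against mean CPM on a log axis for the 10741 genes with at least 10 counts (grey) and the 4 genes (coloured), with dashed lines at 2-fold. Pectinesterase lies at the high end of abundance, above 0 in males and below 0 in females, and the other genes lie in the middle of the range of abundance.

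The difference between the sexes in their UV-B ratio uses the same 4 libraries again. The log2 ratio of the female to the male UV-B ratio was -3.52 for Potri.002G257900.1 (interval -5.24 to -2.12) and -1.09 for Potri.002G066600.1 (-2.13 to -0.04). It was 1.92 for XTH-6 (interval 0.997 to 2.89) and -1.45 for pectinesterase (-1.51 to -1.40). So UV-B went with a relatively lower level in females for Potri.002G257900.1 and pectinesterase, and with a relatively lower level in males for XTH-6. For Potri.002G066600.1 the direction was that of the other cellulose synthase with every scaling, but whether the difference passed 2-fold depended on scaling. With TMM factors the value for Potri.002G066600.1 was -0.89, under 2-fold. These factors moved every such log2 ratio by 0.20, more than the distance of its interval from no difference. With them a difference in response was therefore not detectable for this gene at this depth. Of genes with at least 100 counts, 7.62% were past the fold on the higher side and 17.4% on the lower side, or 10.7% and 12.4% with TMM factors.

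Other entries with the same annotation were set beside each gene. How tags shared by close relatives were counted is not stated, so the level of 1 family member can hold tags of another. The deposited gene ontology terms give 25 entries a cellulose synthase activity, a term that also takes in relatives of the cellulose synthases proper. Besides the 2 genes above, these entries summed to 57.4 CPM with reduced and 45.9 CPM with ambient UV-B in males, and to 44.2 and 29.1 CPM in females. The rest of the family was thus also lowest in females with ambient UV-B, at a ratio to reduced UV-B closer to 1 than that of either gene.

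Potri.002G257900.1 held 25.2% (exact binomial interval 20.9% to 29.8%) and 28.9% (23.8% to 34.3%) of the family's tags in males with reduced and ambient UV-B. In females its share was 18.0% (14.1% to 22.4%) and 3.21% (1.05% to 7.32%). Potri.002G066600.1 held 10.9% (8.0% to 14.5%) and 7.87% (5.11% to 11.5%) in the male libraries. Its female shares were 26.6% (22.0% to 31.5%) and 16.03% (10.6% to 22.7%). As a share of its family the first gene was also lowest in the female ambient library, outside the intervals of the other libraries. The share rests on the same counts by which the gene was selected, so it is not a separate observation.

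A sum of 10 counts or more was reached by 13 of the 25 family entries, or 11 without the 2 genes. Among these 11, UV-B went with a 2-fold higher level in 1 and a lower one in 3 in males, and with 1 and 4 in females. TMM factors left 0 higher in males. Over all 10741 genes with that many counts 15.2% were higher and 15.6% lower in males, or 1161 and 2062 genes against 1635 and 1675 after scaling with TMM factors. The female shares were 14.5% and 16.3%. The median log2 ratio of the 11 was -0.18 in males and -0.18 in females, against 0.11 and 0.02 over all these genes. A gene that passes the count minimum through a single high library has to differ, so these counts describe the list alone.

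The remaining cellulose synthases by description are named here after their values were seen. Potri.018G103900.1 had 50 and 25 counts in males under reduced and ambient UV-B, and 24 and 6 in females. With 0.5 added to each count its UV-B log2 ratio was -0.96 in males and -1.89 in females. Potri.011G069600.1 had 49 and 28 counts in males and 13 and 11 in females, log2 ratios of -0.77 and -0.21. Both had lower levels in females than in males at either UV-B level, unlike Potri.002G066600.1. Potri.018G029400.4, described in the same way, had 0 counts in both male libraries and 3 and 2 in the female ones. An entry with the activity term and no protein name, Potri.005G194200.1, stood at 66, 66, 75 and 32 counts, in the order of males then females, reduced then ambient.

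**Figure D4:**
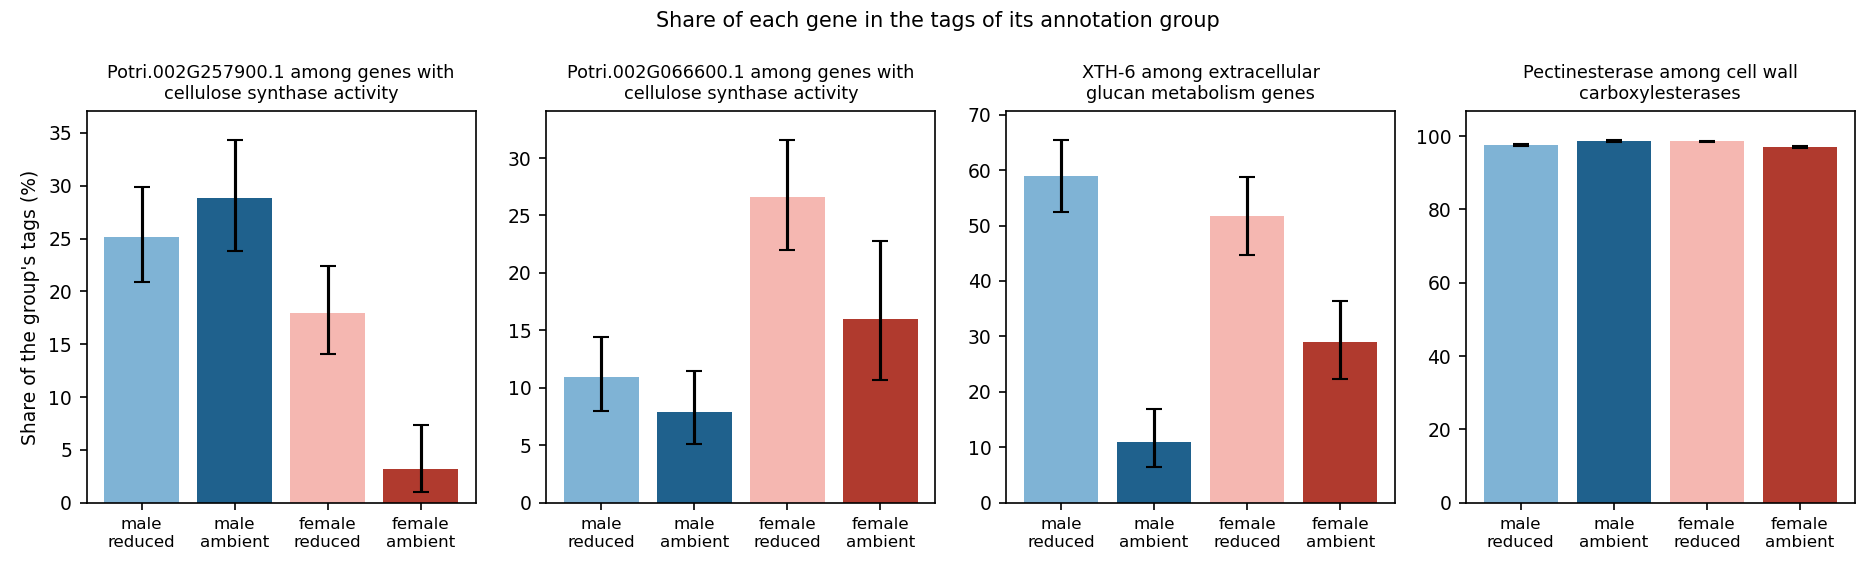
Share of each gene in the tags of the entries with the same deposited annotation, per library, with exact 95% binomial intervals; the bars start at 0 and the scale differs between panels. The share of XTH-6 was 59.0% and 10.9% in the male libraries and 51.7% and 29.0% in the female ones, while pectinesterase stayed above 97%.

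XTH-6 shares the terms glucan metabolic process and external encapsulating structure with other entries, 23 in all. Its share of their tags in males was 59.0% (interval 52.4% to 65.3%) with reduced and 10.9% (6.48% to 16.9%) with ambient UV-B. In females it was 51.7% (44.6% to 58.8%) and 29.0% (22.3% to 36.5%). The other entries together had 96 and 139 counts in the male libraries and 98 and 120 in the female ones. By count their sum was thus higher under ambient UV-B, where XTH-6 was lower. No interval was computed for the ratio of these sums, and TMM factors move every male UV-B log2 ratio by -0.21. Whether the sums differed by more than counting error was not tested. Among the 9 of them with at least 10 counts, 2 were 2-fold higher and 2 lower in males, and 2 and 1 in females, where all genes with that many counts gave 15.2% and 15.6%, and 14.5% and 16.3%.

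By description, 3 entries are xyloglucan enzymes or expansins, proteins that loosen the wall without cutting it. The alpha-expansin Potri.001G240900.1 had 25 counts in males under reduced UV-B and 5, 2 and 4 in the other libraries. The other expansin, Potri.001G112900.1, was listed with 3 counts in females under reduced UV-B and 0 elsewhere. The single endo-1,4-beta-glucanase with at least 10 counts, Potri.001G078900.1, of a class that trims glucan chains, was higher under ambient UV-B in males, with 9 and 26 counts, and had 18 and 21 in females.

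Pectinesterase outweighed all entries with its annotation. Of the 21 entries termed cell wall carboxylesterases it held 97.6% (interval 97.2% to 97.9%) and 98.6% (98.4% to 98.8%) of the tags in males with reduced and ambient UV-B. In females it held 98.5% (98.3% to 98.7%) and 97.1% (96.7% to 97.4%). The other entries summed to 239, 216, 226 and 267 counts, or 55.8, 51.3, 51.4 and 61.7 CPM. These sums spanned a narrower range than pectinesterase, in proportion.

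Of the 6 entries described as pectin enzymes, 3 reached 10 counts. A second pectinesterase-2, Potri.011G135000.1, had 10 counts in males under reduced UV-B and 0 in every other library. A pectate lyase (Potri.006G122000.1), an enzyme that cleaves pectin chains, had 9 and 0 counts in males and 5 and 7 in females.

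Wall proteins were lower under ambient UV-B as a sum, with 97 and 58 counts over 10 entries in males and 75 and 25 in females. Of the 4 with at least 10 counts, 0 were 2-fold higher and 2 lower in males, and 0 and 3 in females, against 15.6% and 16.3% lower over all genes. The most abundant, the fasciclin-like arabinogalactan protein Potri.001G367900.1, had 47 and 16 counts in males under reduced and ambient UV-B, and 41 and 10 in females. It was lower under ambient UV-B in both sexes. Among the other lower ones, Potri.014G168100.1 had 4 and 0 counts in males, and Potri.002G223300.1 had 7 and 0 in females, so a 0 carries part of these numbers. Enzymes of sugar supply went in either direction. Sucrose synthase 3 (Potri.002G202300.1), which makes UDP-glucose from sucrose, had 202 and 361 counts in males and 167 and 248 in females. Its log2 ratios of 0.86 and 0.59 (0.5 added to each count) were above 0 in both sexes. Those of the 2 chosen cellulose synthases were below 0, though for Potri.002G257900.1 a difference between the male libraries was not detectable. A GDP-mannose 4,6-dehydratase (Potri.005G116200.1), an enzyme on the path to fucose, had 19 and 4 counts in males and 14 and 5 in females. A mannan endo-1,4-beta-mannosidase, Potri.019G069400.1, was the single entry for other hemicelluloses and had 2 counts in all, in females under ambient UV-B.

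Over all 32 cell wall entries named by description, 16 had at least 10 counts, the 4 genes among them. Without the 4, UV-B went with a 2-fold higher level in 1 and a lower one in 6 of 12 in males, median log2 ratio -1.23, and with 0 and 5 of 12 in females, median -0.09. Over all genes with at least 10 counts 15.2% were higher and 15.6% lower in males, or 10.8% and 19.2% with TMM factors, and 14.5% and 16.3% in females. The medians of this short list depended on the count minimum: with none they were -0.11 in males and -0.34 in females, and with at least 100 counts -0.87 and -1.05. Among its lower entries in males, Potri.011G135000.1 (10 and 0 counts) and Potri.006G122000.1 (9 and 0) rest on a 0 under ambient UV-B. With 0 counts set at 3, 5 entries were lower in males. An entry that passes the minimum through a single high library has to differ, so these numbers describe the list alone. A wider set of 105 entries carried gene ontology terms that name cellulose, pectin, or the organization, biogenesis or modification of the cell wall. It holds the 2 chosen cellulose synthases but neither XTH-6 nor pectinesterase. The process term of pectinesterase is deposited as an identifier without a name, which a word pattern cannot match. Its absence therefore does not show that it lacks a term of this kind. Other entries with unnamed terms can be missing in the same way, so the set need not cover the pectin enzymes. The set also holds the other entries with cellulose synthase activity and at least 10 counts, and the alpha-expansin Potri.001G240900.1. It thus overlaps with the lists above and is not a separate observation. Without the 2 chosen cellulose synthases, 57 entries of the set had at least 10 counts. Of these 57, 3 were higher and 17 lower in males, and 8 higher and 19 lower in females. Their medians were -0.31 and 0.02, beside 0.11 and 0.02 over all genes. The male median turned sign with the count minimum, to 0.18 with at least 100 counts, where the female one was -0.20. With no minimum the male median was 0.03, the value of any entry with equal counts in both male libraries, 0 and 0 included. Of the 105 entries, 33 and 43 were at 0 in males with reduced and ambient UV-B, so this value says little of the set. The female 0.02 is likewise the value at equal counts. The most abundant of these entries, Potri.006G129200.1, which has no protein name, had 186 and 95 counts in males and 134 and 39 in females. Potri.012G117100.1 (59 and 21 counts) and Potri.016G088700.1 (61 and 28) had the lowest male log2 ratios among the entries with at least 50 counts, -1.46 and -1.10.

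**Figure D5:**
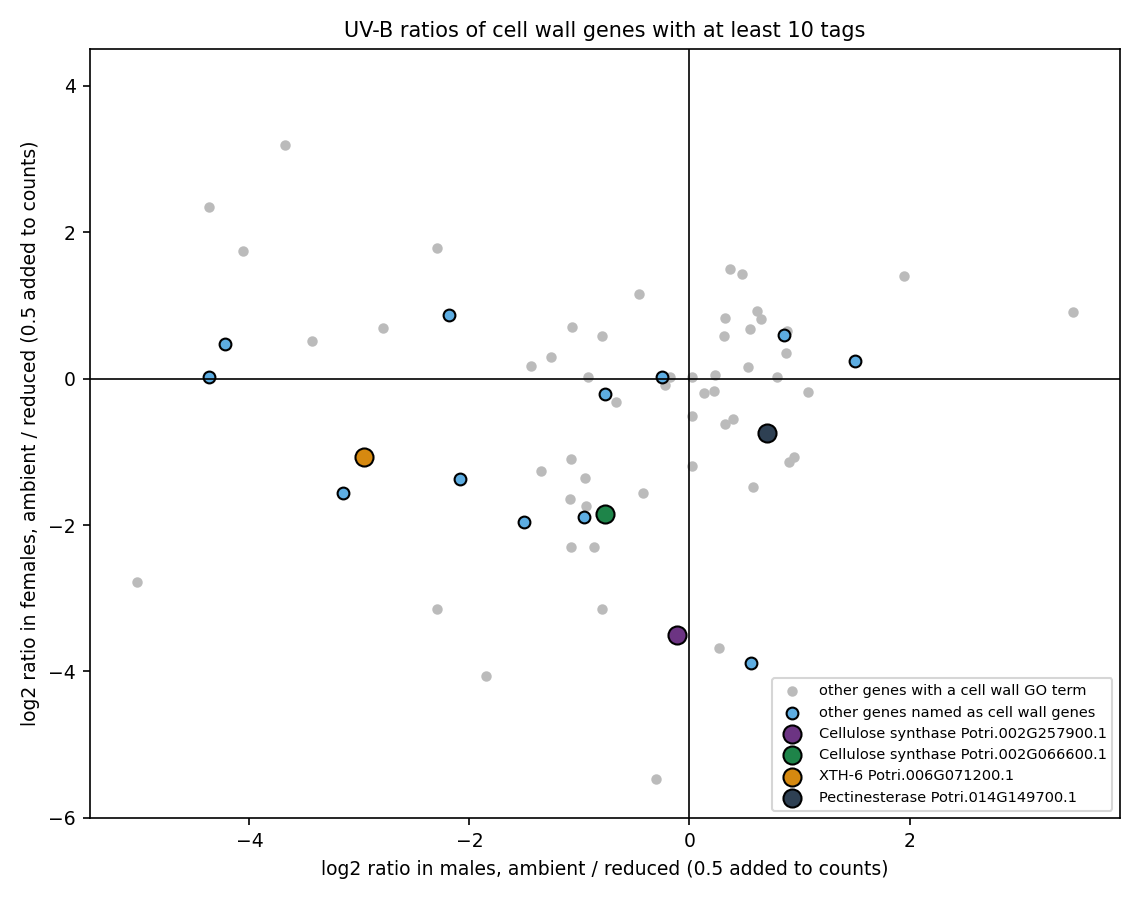
UV-B log2 ratio in females against males (ambient over reduced, 0.5 added to each count) for cell wall genes with at least 10 counts. Shown are the 4 genes, the other genes named by description and those of the wider gene ontology set. XTH-6 and the cellulose synthases lie below 0 on both axes, and pectinesterase lies above 0 in males and below 0 in females.

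Markers of lignified and epidermal cells were lower in sum under ambient UV-B in both sexes, and mesophyll markers in females. The 37 entries described as laccases, lignin monomer enzymes or fasciclin-like proteins summed to 124 and 91.7 CPM in males under reduced and ambient UV-B, and to 86.7 and 50.9 CPM in females. Of these 12 and 20 were at 0 in the male libraries and 10 and 19 in the female ones. The fasciclin-like entries are also among the wall proteins above, so these lists overlap and are not separate observations. The 11 epidermal entries, ketoacyl-CoA synthases and lipid transfer or cutin proteins, summed to 23.8 and 11.9 CPM in males and 19.1 and 8.32 CPM in females, with 3 or 4 at 0. Of the 19 lignified cell entries with at least 10 counts, 0 were 2-fold higher and 9 lower in males, and 2 and 10 in females. Of the 7 epidermal ones 0 and 3, and 0 and 5, were past the fold. The epidermal list held 102 and 50 counts in males under reduced and ambient UV-B, and 84 and 36 in females. Since an entry that passes the minimum through a single high library has to differ, these numbers describe the lists alone. The shares over all genes were 15.2% and 15.6% in males, or 10.8% and 19.2% with TMM factors, and 14.5% and 16.3% in females. The 24 mesophyll entries summed to 7587 and 8643 CPM in males under reduced and ambient UV-B and to 8503 and 6965 CPM in females, directions that pectinesterase shared. As a share of the listed tags the male values were 5.10% and 5.03%, the reverse order, and the female ones 5.66% and 4.82%. Of the 20 with at least 10 counts, 2 were higher and 6 lower in males, and 0 and 4 in females. A log2 ratio below 0 was found for 10 of the 20 in males and 17 in females. The medians over all genes with that many counts were 0.11 and 0.02. The 2 phloem entries had at most 3 counts. In bulk leaves fewer cells of a type and less RNA per cell cannot be told apart, and the part of these cells in the levels of the 4 genes was not tested.

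The genes most like each of the 4 over the 4 libraries were sought among 488 entries with a protein name and at least 50 counts in one library. Likeness was the Euclidean distance between log2 CPM values centred on their mean. Closest to Potri.002G257900.1 was an aminotransferase (Potri.017G014100.1, distance 0.83), with 36, 40, 51 and 2 counts in the order males then females, reduced then ambient. A 2-dehydro-3-deoxyphosphoheptonate aldolase (Potri.002G099200.1, 1.42) and an arogenate/prephenate dehydratase (Potri.004G188100.1, 1.4999), enzymes of aromatic amino acid synthesis, followed. All of them had their lowest count in females under ambient UV-B.

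Closest to Potri.002G066600.1 were a photosystem II 44 kDa protein (Potri.010G032700.1, distance 0.71), a calcium antiporter (Potri.013G065800.1, 0.74) and a white-brown-complex ABC transporter (Potri.005G064300.1, 0.79). Each had its highest count in females under reduced UV-B. XTH-6 was closest to ribosomal protein S3 (Potri.012G047500.1, 0.27), which had 1446 and 197 counts in males and 948 and 562 in females. Next came a Ycf1-like entry (Potri.011G073900.1, 0.83) and ribosomal protein S7 (Potri.013G138900.1, 0.88). Their lowest counts, like that of XTH-6, were in males under ambient UV-B. Pectinesterase was closest to a high mobility group family entry (Potri.012G048500.1, 0.07), with 57, 88, 87 and 49 counts. A SET domain protein (Potri.007G033000.1, 0.21) and a TIP subfamily aquaporin (Potri.006G121700.1, 0.24) followed, both at higher counts in males under ambient and females under reduced UV-B. With 4 libraries many entries can share an order by counting error, so these distances are a description.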

How the data were processed

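The deposited table gives, per the file headers, raw tag counts per gene and library, the library total in each column name, and values headed TPM. The latter are CPM by the authors: 100% of the deposited CPM values lay within 0.005 of the count scaled to a header total of 1000000. Only the counts were used further. Libraries were made with oligo-dT beads, NlaIII, MmeI and 15 PCR cycles, per the labels' protocols, which also mention biological replicates of the extraction, while the labels list 1 library per group. Not given in the sources used here are the genome build, how tags were assigned to genes, and how tags shared by near-identical genes were treated.

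Groups come from the labels. Levels are CPM by header totals with exact Poisson intervals. Ratios have exact conditional intervals, and ratios of ratios conditional intervals from the noncentral hypergeometric distribution (scipy 1.17.1). Intervals cover counting error only and treat tags as independent. Tags copied by PCR are not independent molecules, so the intervals can be too narrow even for that error. With 1 library per group no test of a condition was made. Over all genes and lists 0.5 was added to counts, and a 2-fold difference was the call. Interval and ratio code was tested on simulated counts. Alternatives were TMM factors (edgeR 4.0.16), DESeq2 1.42.0 size factors, sums of the listed entries as totals, other count minimums, a 3-fold call, 1 added to counts and 0 counts set at 3.

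The genes and lists were chosen with earlier results of these data known. Lists are word patterns on the best-hit description or the gene ontology terms, and the 3 annotation groups (cellulose synthase activity, extracellular glucan metabolism, cell wall carboxylesterase) were added after the counts were seen. By rule the text names the 4 genes, from each list up to 2 entries per direction and UV-B comparison past 2-fold with at least 50 counts, its most abundant entry, and the 3 entries most like each gene. Other named entries were chosen after their values were seen.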

Additional observations from a re-analysis of the deposited data

Results flagged for a closer look

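Pectinesterase (Potri.014G149700.1) was higher under ambient than reduced UV-B in the male libraries and lower in the female ones, log2 ratios of 0.71 and -0.75. The log2 ratio of the female to the male ratio was -1.45. The difference was not tested, since each ratio compares 1 library with 1 library.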

How the results depend on the processing

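No paired analysis was possible because each group has 1 library, and for the same reason no library could be left out. Of 100 alternative log2 ratios of the 4 genes, none changed sign, and 3 crossed 2-fold, all for Potri.002G066600.1 in the difference between the sexes (-0.89 with TMM factors, -0.88 with size factors, -0.83 with sums of the listed entries). In all, 10 of the 100 moved outside the counting interval. Pectinesterase intervals are so narrow that rescaling moves it past them, and gene counts per fold depend mostly on the count minimum and the fold. For entries under about 10 counts depth limits every ratio.

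Without a count minimum, genes 2-fold higher and lower numbered 3082 and 4398 for UV-B in males, 3821 and 4223 in females, 4645 and 4948 between the sexes under reduced UV-B, 4795 and 4363 under ambient UV-B, and 6080 and 5548 for the difference in response. With at least 100 counts these were 351 and 164, 231 and 231, 472 and 546, 315 and 713, and 265 and 605. With a 3-fold call they were 765 and 1049, 891 and 997, 1184 and 1531, and 1320 and 1687, and for the difference 1625 lower. At 3-fold, 0 of the 4 genes were higher in females at reduced and 0 at ambient UV-B, and 1 was lower in the difference in response.

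For the wider gene ontology set without the 4 genes, higher and lower entries numbered 11 and 29 in males and 20 and 33 in females without a count minimum. With at least 100 counts these were 0 and 3, and 0 and 8. At 3-fold 10 were lower in males, and 4 higher and 11 lower in females. For the entries named by description, no count minimum gave 11 lower in males, and 3 higher and 13 lower in females. With at least 100 counts 0 were higher and 1 lower in males, and 2 lower in females. At 3-fold 0 were higher in males and 3 lower in females. With 0 counts set at 3, 1 was higher in females. Of 80 alternative values of the annotation groups of cellulose synthases and glucan enzymes, 53 stayed within 1.5 times the count or within the spread of the list, and 27 did not. The cause was not tested.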
